A study of Mus musculus with 6 samples.

Results

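ATP-binding cassette (ABC) genes were followed in mouse liver, as all genes on the array whose symbol is Abc, a letter from a to g and a number. This rule took 48 genes of the 22180 tested, each measured by 1 probe set, with 16 in subfamily A, 9 in B, 10 in C, 3 in D, 1 in E, 3 in F and 6 in G. Total liver RNA was taken from male mice of the C57BL/6N background, 2 months old, in 3 samples labelled cGK1-KO and 3 samples labelled wild type, with 1 array per sample. The knockout mice lack cGMP-dependent protein kinase 1 (cGK1, the product of Prkg1) but carry a rescue of it in smooth muscle, per the series text. The promoter of the rescue, the deleted exon and whether controls carry any allele or transgene are not stated in the labels, and the series text calls the wild-type samples control mice. Values are log2 RMA expression, a probe summary that sets all arrays to a common distribution, and n = 3 per group throughout.

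ABC proteins bind and hydrolyse ATP in a conserved domain, and most of them use it to move a substrate across a membrane. In hepatocytes several of them stand in the canalicular membrane and deliver bile salts, phospholipid, sterols and conjugates into bile, while others stand in the sinusoidal membrane and return conjugates to blood. Most members of subfamily D carry fatty acyl-CoA into peroxisomes, some of subfamily B sit in mitochondria, and those of subfamilies E and F have no membrane part and act in translation.

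Promoter sequences are shown for the gene with the strongest evidence of a difference (Abcg2) and for Abcb6. Of the 9 genes at an unadjusted p under 0.05, Abcb6 had the smallest SD within each group. A sequence is also shown for Abcg5, which with its neighbour Abcg8 encodes the 2 subunits of a single sterol transporter. All sequences are from RefSeq on GRCm38.p6 and run from 250 bases before to 50 bases after an annotated start. They are written 5′ to 3′ on the strand of the gene. RefSeq promoters were matched for 38 of the 48 members (45 promoters). In the first 3 sequences capitals mark AGGTCA, the half-site bound by many nuclear receptors, read on both strands. In the last, capitals mark the 209 bases shared with 1 of the 2 promoter windows of Abcg8, on the opposite strand (chr17:84682871-84683170). The Abcg8 start of that window lies 110 bases away from the start of Abcg5. The other Abcg8 window (chr17:84676052-84676351) shares no bases with that of Abcg5.
Abcg2, start 1, chr6:58584283-58584582, + strand: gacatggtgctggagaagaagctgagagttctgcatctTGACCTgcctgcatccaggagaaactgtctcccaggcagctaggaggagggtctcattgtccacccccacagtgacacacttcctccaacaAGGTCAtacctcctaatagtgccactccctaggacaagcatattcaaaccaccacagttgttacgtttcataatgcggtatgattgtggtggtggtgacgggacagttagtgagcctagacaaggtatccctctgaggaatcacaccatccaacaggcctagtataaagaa
Abcg2, start 3, chr6:58640296-58640595, + strand: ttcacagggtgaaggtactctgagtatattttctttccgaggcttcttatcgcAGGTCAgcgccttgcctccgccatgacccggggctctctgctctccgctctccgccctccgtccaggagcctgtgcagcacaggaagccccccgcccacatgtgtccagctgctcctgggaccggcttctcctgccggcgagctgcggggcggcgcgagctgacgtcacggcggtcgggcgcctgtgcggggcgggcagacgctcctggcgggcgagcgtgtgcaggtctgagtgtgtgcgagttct
Abcb6, chr1:75180343-75180642, - strand: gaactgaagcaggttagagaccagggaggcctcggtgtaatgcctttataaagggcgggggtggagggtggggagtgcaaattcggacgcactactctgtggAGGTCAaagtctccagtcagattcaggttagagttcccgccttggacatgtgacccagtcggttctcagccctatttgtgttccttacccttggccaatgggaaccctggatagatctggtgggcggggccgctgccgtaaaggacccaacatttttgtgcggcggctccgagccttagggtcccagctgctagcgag
Abcg5, chr17:84682962-84683261, - strand: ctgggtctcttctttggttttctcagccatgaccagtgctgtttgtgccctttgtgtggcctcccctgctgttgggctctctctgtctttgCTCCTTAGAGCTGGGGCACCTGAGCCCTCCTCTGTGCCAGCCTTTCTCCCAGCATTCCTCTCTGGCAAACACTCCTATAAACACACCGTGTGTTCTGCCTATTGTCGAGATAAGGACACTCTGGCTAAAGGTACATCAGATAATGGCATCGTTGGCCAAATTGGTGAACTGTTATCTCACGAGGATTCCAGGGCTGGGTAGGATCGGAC

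AGGTCA began at positions -212 and -121 from start 1 of Abcg2, the first of them on the opposite strand as TGACCT, at -197 from its start 3 and at -148 from the start of Abcb6. It was found in 7 of the 45 ABC promoters (15.6%) and in 16.3% of all 32851 promoters in the RefSeq table. Among members at an unadjusted p under 0.05 and lower in the knockout, 3 of 8 promoters from 5 genes held the half-site. Of these 3, 2 belong to Abcg2. Start 2 of Abcg2 (chr6:58596422-58596721), which is not printed, did not hold it.

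The knockout arrays spread more than the controls and knockout replicate 3 stood apart. Across all genes it correlated with each control array at 0.981 to 0.983 but with the other knockout arrays at 0.978 to 0.979, so values without it are given below. The labels do not say whether replicates are separate animals, so p-values cover the spread between samples, which may be technical. Prkg1 lay at 3.31, 3.04 and 3.22 in the knockout and 3.32, 2.97 and 2.95 in the control arrays, close to the median of all values in the table (3.14), so it does not check the genotype labels. All 6 hepatocyte markers, albumin among them, lay well above this level in both groups. Their values summed on the linear scale to 27554 to 28011 in knockout and 28521 to 30161 in control arrays. Probe sets with a mean below 3.14 are called dim here, which applied to 12 of the 48 members, and a difference of a dim gene can be understated.

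No ABC gene passed an adjusted p of 0.05 in limma, where 0% of all genes did, so the differences below are given with their unadjusted p from limma and read against all tested genes. At an unadjusted p under 0.05, 7 members were lower in the knockout, which is 14.6% of the members, where 5.46% of all genes were. Those 7 were Abcg2, Abcb6, Abcd3, Abce1, Abcb8, Abcf3 and Abcc6. At the same level 2 members were higher, Abcd2 and Abcg1, which is 4.17% of the members, where 5.06% of all genes were. All 3 knockout values lay below all 3 control values for 12 members (25% of them), where 9.14% of all genes did so. All 3 lay above for 3 members, Abcd2, Abca16 and Abcc12 (6.25%), where 7.61% of all genes did so. Of these, Abca16 and Abcc12 were dim, with unadjusted p of 0.119 and 0.236 in limma. The count of 7 was 6 without knockout replicate 3, where 6.19% of all genes were lower at that level, and 3 without knockout replicate 1 (4.54% of all genes). It was 10 with the intensity trend, a variance prior that follows intensity (6.28% of all genes), and 9 without knockout replicate 2 (6.21%). It was also 3 without control replicate 2 (3.42%) and 4 without control replicate 3 (4.1%). The count of 2 was 1 without control replicate 2, where 3.54% of all genes were higher.

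**Figure D1:**
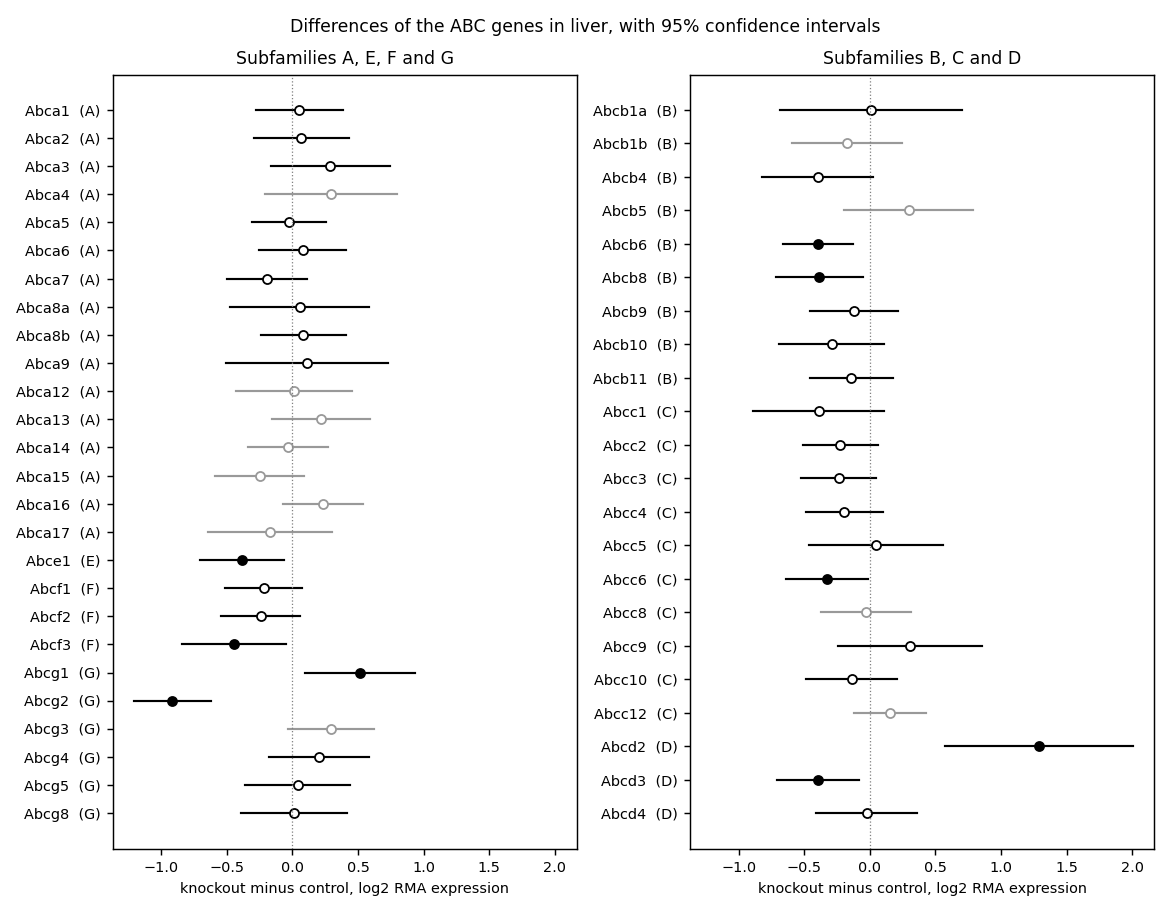
Difference between knockout and control (log2 RMA expression) of each of the 48 ABC genes, with 95% confidence intervals from limma, n = 3 arrays per group; filled points have an unadjusted p under 0.05 and grey genes are dim. Abcg2 lies lowest at -0.92 and Abcd2 highest at 1.29, while the intervals of all 16 genes of subfamily A span 0.

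Canalicular transporters were led by Abcg2, which encodes the breast cancer resistance protein, an exporter of urate, sulfated conjugates and many drugs. Abcg2 lay at 4.99, 5.19 and 5.15 in the knockout arrays, against 5.98, 5.97 and 6.13 in the control arrays. Every knockout value was below every control value, and the gap between the groups was larger than the range within either. The difference was -0.92 (SE 0.13, 95% confidence interval -1.21 to -0.62, 1.89-fold lower) with an unadjusted p of 5.28e-05 and a limma adjusted p of 0.0888. Leaving out any single array kept it between -0.96 and -0.85. The adjusted p was 0.0481 with dim genes left out and 0.0395 when the variance prior followed intensity, in a range over all 14 alternatives of 0.0395 to 0.456. Under these 2 settings 0.115% and 0.113% of all genes passed 0.05, and Abcg2 was the member that did.

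The other canalicular genes differed less. Abcc2, which encodes the exporter of bilirubin conjugates MRP2, lay at 9.73, 9.69 and 9.89 in knockout and 10.0, 9.94 and 10.0 in control arrays. Its groups did not overlap, but the difference of -0.22 (SE 0.13, limma adjusted p = 0.565) missed an unadjusted p of 0.05, which it reached when the variance prior followed intensity (0.0408). Abcb4, the flippase that brings phosphatidylcholine into bile, lay at 8.98, 9.09 and 8.39 in knockout and 9.15, 9.33 and 9.18 in control arrays. Its groups did not overlap either, and knockout replicate 3 lay farthest from the controls. The difference was -0.40 (SE 0.19, limma adjusted p = 0.498) and was -0.18 without that array. Its unadjusted p was 0.0634 in limma, 0.0387 with the intensity trend and 0.024 without knockout replicate 2, where the difference was -0.53. Abcb11, the bile salt export pump, lay at 8.21, 8.34 and 8.51 in knockout and 8.34, 8.56 and 8.58 in control arrays, which overlapped, with a difference of -0.14 and a 95% confidence interval of -0.46 to 0.17.

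Abcb1a and Abcb1b, the mouse genes for the drug exporter P-glycoprotein, gave no clear direction. Abcb1a lay at 3.13, 4.26 and 2.91 in knockout and 3.57, 3.48 and 3.22 in control arrays, with replicate 2 above and the other knockout replicates below all controls. Its difference of 0.0069 became -0.41 without knockout replicate 2 and -0.014 after further quantile normalization. Abcb1b was dim, at 2.42, 1.74 and 2.10 in knockout and 2.34, 2.06 and 2.37 in control arrays. The 2 genes are close copies and neighbours on chromosome 5 beside Abcb4, so their probe sets can cross-hybridise.

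Sterol transporters differed mainly in Abcg1, which passes cellular cholesterol to high-density lipoprotein and is known for this role in macrophages. Abcg1 lay at 4.78, 5.01 and 4.47 in the knockout arrays, against 4.53, 4.11 and 4.06 in the control arrays. Knockout replicate 3 lay below control replicate 1, so the groups overlapped. The difference was 0.51 (SE 0.19, 95% confidence interval 0.097 to 0.93, 1.43-fold higher, unadjusted p = 0.0211, limma adjusted p = 0.391), and 0.66 without knockout replicate 3. It missed an unadjusted p of 0.05 without knockout replicate 1 (0.0502) or 2 (0.0769, difference 0.39) and without control replicate 2 (0.0714) or 3 (0.0793).

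Kupffer cell and other macrophage markers had higher means in the knockout, as Abcg1 did. All 10 of these marker genes had positive differences at an unadjusted p under 0.05, with a median of 0.91, where 5.06% of all genes were higher at that level. Their summed linear level was 1053, 1958 and 788 in the knockout arrays, against 634, 580 and 584 in the control arrays, highest in knockout replicate 2 and lowest among knockouts in replicate 3, the same order as Abcg1 among the knockouts. None of the 10 was at 0 on any array. Sums of the 6 sinusoidal endothelial markers were also higher, at 578, 968 and 594 in knockout and 561, 550 and 551 in control arrays. Only 1 of the 6, Lyve1, lay above the controls without overlap (difference 0.92). It lay at 7.40, 7.94 and 7.44 in knockout and 6.76, 6.61 and 6.67 in control arrays. The other endothelial markers overlapped between the groups, and Clec4g differed by -0.00082, so the higher sums do not describe the whole list. Sums of 5 lymphocyte markers were higher too (45, 40.8 and 42.6 against 32.9, 35.6 and 35.4), of which 4 were dim. Cholangiocyte, stellate cell, neutrophil and adipocyte sums overlapped between the groups, and hepatocyte sums were lower. Of the 6 hepatocyte markers 4 had negative differences, but only 1, Tat, lay below the controls without overlap (difference -0.38). The other 2, Alb and Ttr, had positive differences of 0.037 and 0.045. The part of any of these lists in the Abcg1 difference was not tested. In whole liver more cells of a type cannot be told apart from more RNA per cell.

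The sterol transporters of hepatocytes showed small differences. Abca1, which loads cholesterol onto apolipoprotein A-I at the sinusoidal membrane, lay at 7.68, 7.87 and 7.62 in knockout and 7.55, 7.89 and 7.56 in control arrays, with a difference of 0.052 (95% confidence interval -0.28 to 0.38). Abcg5 lay at 6.60, 7.13 and 6.60 in knockout and 6.90, 6.71 and 6.60 in control arrays, and its partner Abcg8 at 7.50, 7.72 and 7.05 in knockout and 7.52, 7.32 and 7.41 in control arrays. Both genes were highest in knockout replicate 2, and their groups overlapped. Their differences were 0.038 (95% confidence interval -0.36 to 0.44) for Abcg5 and 0.0090 (-0.39 to 0.41) for Abcg8. Abcg4, a relative of Abcg1 known mainly from brain, lay at 3.48, 3.32 and 3.03 in knockout and 3.31, 2.87 and 3.03 in control arrays. All 5 sterol genes had positive differences with a median of 0.052, where the median of all tested genes was 0.00108. Differences of Abca1, Abcg5 and Abcg8 turned negative without some single arrays.

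**Figure D2:**
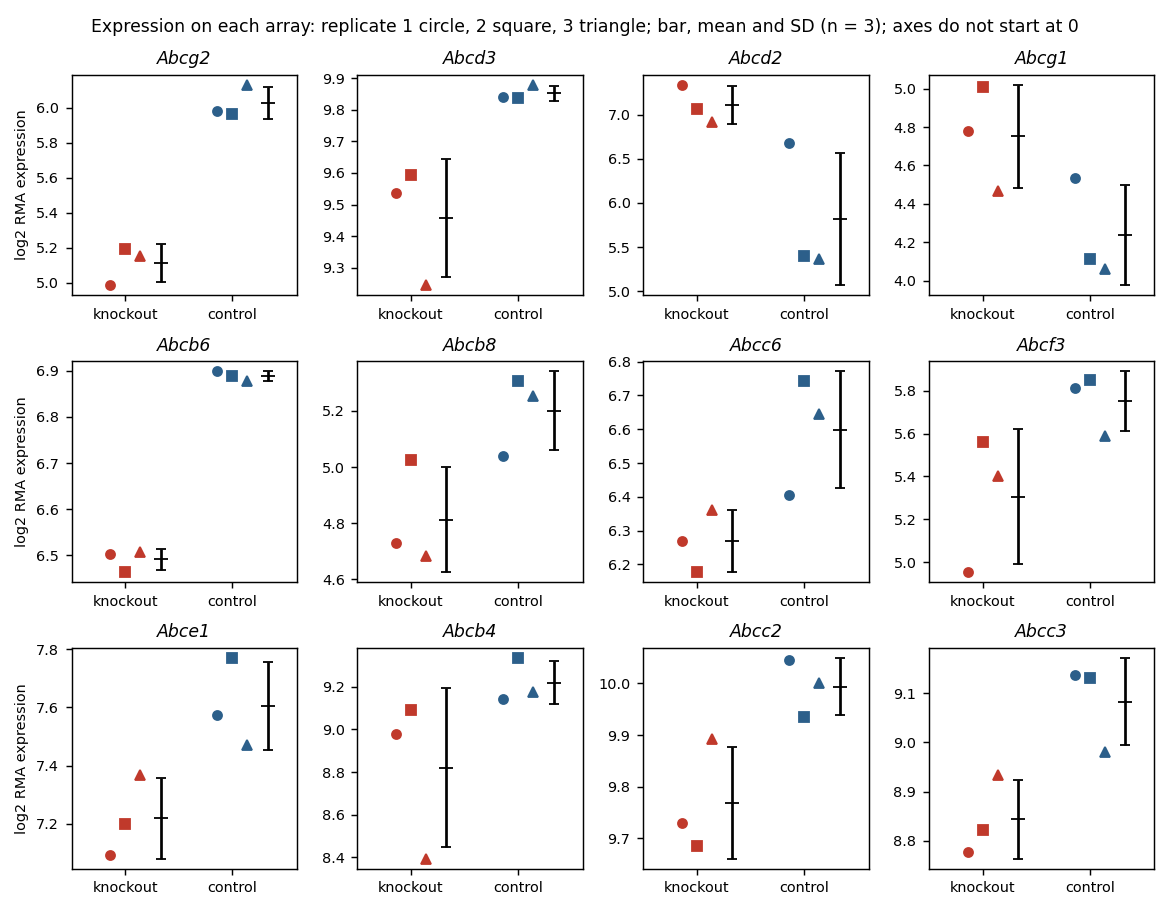
Expression (log2 RMA, axes not starting at 0) of 12 ABC genes on each knockout array (red, left) and control array (blue, right), with the mean and SD of 3 arrays beside the points. Abcg2 and Abcb6 show 2 separate clouds, control replicate 1 of Abcd2 lies at 6.68, apart from the other controls, and Abcg1 overlaps between the groups.

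Peroxisomal transporters differed in opposite directions. Abcd2, which carries very long-chain and polyunsaturated fatty acyl-CoA and is better known from brain and adipose tissue than from liver, lay at 7.34, 7.06 and 6.92 in the knockout arrays, against 6.68, 5.40 and 5.37 in the control arrays. Every knockout value was above every control value, but control replicate 1 lay nearer to the knockouts than to the other controls. The difference was 1.29 (SE 0.32, 95% confidence interval 0.57 to 2.01, 2.44-fold higher, unadjusted p = 0.00279, limma adjusted p = 0.261). Without control replicate 1 it was 1.72 (adjusted p = 0.0688 in limma, in a range over 14 alternatives of 0.0688 to 0.690), and without knockout replicate 3 it was 1.38.

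Abcd3, which encodes the abundant peroxisomal membrane protein PMP70 and takes in dicarboxylic and branched-chain acyl-CoA and bile acid intermediates, was lower. It lay at 9.54, 9.59 and 9.25 in the knockout arrays, against 9.84, 9.84 and 9.88 in the control arrays, with no overlap and a knockout SD of 0.19 against a control SD of 0.024. The difference was -0.39 (SE 0.14, 95% confidence interval -0.71 to -0.084, unadjusted p = 0.0183, limma adjusted p = 0.377), and -0.29 (unadjusted p = 0.0621) without knockout replicate 3. Without control replicate 3 the unadjusted p was 0.0528. Abcd4, the third gene of the subfamily, acts in vitamin B12 release from lysosomes and lay at 5.05, 5.12 and 4.64 in knockout and 5.11, 5.04 and 4.74 in control arrays, a difference of -0.025.

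Genes that work beside the peroxisomal transporters were read from a list of 5, of which 4 were measured. Pex11a, which acts in peroxisome division, and Acaa1b, a thiolase of peroxisomal fatty acid oxidation, were lower at an unadjusted p under 0.05, where 5.46% of all genes were. Pex11a lay at 6.22, 6.23 and 6.30 in knockout and 7.19, 7.19 and 7.09 in control arrays (difference -0.90, limma adjusted p = 0.0826). Acaa1b lay at 9.06, 8.65 and 8.27 in knockout and 9.95, 9.75 and 9.87 in control arrays (difference -1.20, limma adjusted p = 0.133). Pex19, the receptor that delivers peroxisomal membrane proteins, had a difference of -0.16, and its docking partner Pex3 of 0.0066.

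Among sinusoidal exporters the smallest unadjusted p was that of Abcc6, which mediates release of ATP from hepatocytes and is known for its part in preventing ectopic calcification. Abcc6 lay at 6.27, 6.18 and 6.36 in the knockout arrays, against 6.41, 6.74 and 6.65 in the control arrays. The groups did not overlap, with a gap between knockout replicate 3 and control replicate 1 that was narrow beside the spread of the controls. The difference was -0.33 (SE 0.14, unadjusted p = 0.042, limma adjusted p = 0.451), and it missed an unadjusted p of 0.05 with the replicate block (0.0615), after further quantile normalization (0.0978), without knockout replicate 1 (0.0726) or 2 (0.106), and without control replicate 2 (0.148) or 3 (0.109). Abcc3, which exports bilirubin and bile acid glucuronides to blood, lay at 8.78, 8.82 and 8.93 in knockout and 9.14, 9.13 and 8.98 in control arrays, without overlap. Its difference was -0.24 (SE 0.13, unadjusted p = 0.0902 in limma, and 0.0354 with the intensity trend).

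The remaining sinusoidal genes overlapped between the groups. Abcc4, an exporter of sulfated bile acids and cyclic nucleotides, lay at 3.31, 3.36 and 3.18 in knockout and 3.35, 3.54 and 3.55 in control arrays (difference -0.19). Abcc5, for which cyclic GMP has been described as a substrate, lay at 3.47, 3.98 and 3.07 in knockout and 3.29, 3.36 and 3.73 in control arrays (difference 0.049, and -0.19 without knockout replicate 2). Abcc1, an exporter of glutathione conjugates, lay at 3.53, 4.44 and 3.73 in knockout and 4.15, 4.41 and 4.31 in control arrays (difference -0.39, unadjusted p = 0.112 in limma), and its difference was -0.66 (0.00239) without knockout replicate 2 and -0.21 (0.369) without knockout replicate 1. Over the 5 sinusoidal genes 4 differences were negative, with a median of -0.24. Over the 8 canalicular genes 5 were negative, with a median of -0.16. Of all tested genes 49.8% had negative differences, with a median over all of 0.00108.

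Of 3 measured mitochondrial ABC genes, 2 were lower at an unadjusted p under 0.05. Abcb6, a porphyrin transporter of mitochondria and other membranes, had the closest replicates of the 9 genes at an unadjusted p under 0.05, at 6.50, 6.46 and 6.51 in the knockout arrays, against 6.90, 6.89 and 6.88 in the control arrays. The SD was 0.023 in the knockout and 0.011 in the control arrays, and the groups were well apart. The difference was -0.40 (SE 0.12, 95% confidence interval -0.66 to -0.13, 1.32-fold lower, unadjusted p = 0.00803, limma adjusted p = 0.324), and leaving out any single array kept it between -0.41 and -0.38.

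Abcb8, part of a mitochondrial potassium channel complex, lay at 4.73, 5.03 and 4.68 in knockout and 5.04, 5.30 and 5.25 in control arrays. Its highest knockout value, in replicate 2, lay just under the lowest control value. The difference was -0.39 (SE 0.15, unadjusted p = 0.0273, limma adjusted p = 0.409), and it missed an unadjusted p of 0.05 without knockout replicate 1 (0.0716) or 3 (0.0792) and without control replicate 2 (0.0922) or 3 (0.0784). Abcb10, which is needed for haem synthesis in erythroid cells, lay at 4.92, 5.20 and 5.61 in knockout and 5.55, 5.53 and 5.51 in control arrays. Knockout replicate 3 lay above all controls and the other 2 knockouts lay below them, and the difference of -0.29 was -0.47 without that array and -0.13 without knockout replicate 1.

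The ABC proteins without a membrane part lay lower in all 4 cases, each with no overlap between the groups, where 9.14% of all genes lay below without overlap. Abce1 recycles ribosomes after translation ends and lay at 7.09, 7.20 and 7.37 in knockout and 7.57, 7.77 and 7.47 in control arrays. Its difference was -0.39 (SE 0.14, unadjusted p = 0.0229, limma adjusted p = 0.398), and it missed an unadjusted p of 0.05 without knockout replicate 1 (0.0695) or control replicate 2 (0.0942). Abcf3, whose yeast relative acts in the Gcn2 stress pathway, lay at 4.95, 5.56 and 5.40 in knockout and 5.81, 5.85 and 5.59 in control arrays. Its difference was -0.44 (SE 0.18, unadjusted p = 0.0319, limma adjusted p = 0.426) and -0.27 without knockout replicate 1, its lowest array (unadjusted p = 0.111). It also missed that level without control replicate 1 (0.0849) or 2 (0.0952).

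Abcf1, which promotes translation initiation, lay at 6.02, 6.17 and 5.94 in knockout and 6.21, 6.37 and 6.20 in control arrays. Abcf2 lay at 6.11, 6.04 and 6.04 in knockout and 6.13, 6.37 and 6.42 in control arrays, where knockout replicate 1 and control replicate 1 almost met. Their differences were -0.22 for Abcf1 and -0.24 for Abcf2, with unadjusted p of 0.128 and 0.101 in limma. The median over the 4 genes was -0.31.

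**Figure D3:**
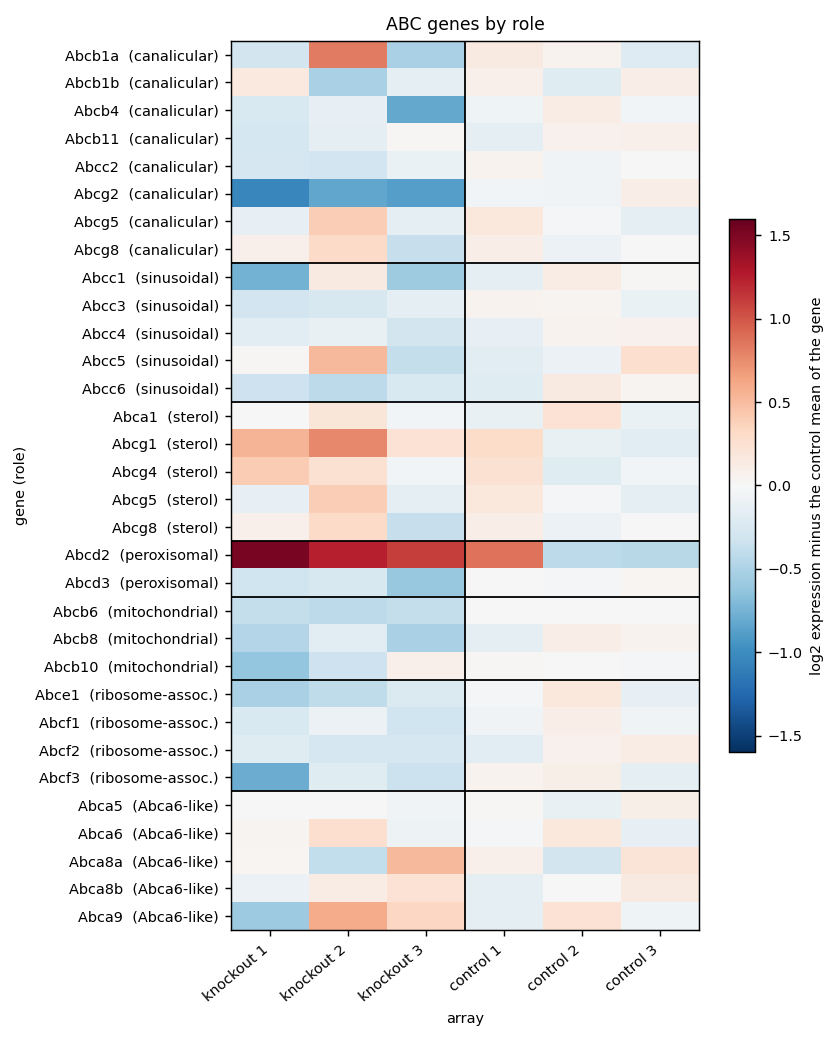
Heat map of log2 expression minus the control mean of each gene, for ABC genes grouped by role (rows) on the 3 knockout arrays (left) and 3 control arrays (right). Abcg2, Abcd3, Abcb6 and the ribosome-associated genes are among those blue in all 3 knockout columns, and Abcd2 is red in the knockout columns and in control replicate 1.

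Subfamily A, large lipid transporters, held no member at an unadjusted p under 0.05, where 5.46% of all genes were lower and 5.06% higher. Of its 16 genes 7 were dim, 11 differences were positive and the range was -0.25 to 0.29 with a median of 0.061. Among all tested genes 49.8% of differences were negative. The 5 neighbours Abca5, Abca6, Abca8a, Abca8b and Abca9 on chromosome 11 had differences from -0.024 to 0.11. Among them Abca6 lay at 8.53, 8.76 and 8.41 in knockout and 8.45, 8.65 and 8.36 in control arrays, and overlapped between the groups. Abca14, Abca15 and Abca16, neighbours on chromosome 7, were dim on the arrays of both groups. Abca16, whose knockout values lay above its controls, measured 1.90, 1.92 and 1.90 in knockout and 1.66, 1.86 and 1.51 in control arrays.

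The channel subunit genes Abcc8 and Abcc9 encode sulfonylurea receptors, which form potassium channels with a pore protein. Abcc9, picked once its values were known, lay at 6.53, 7.32 and 6.29 in knockout and 6.59, 6.36 and 6.28 in control arrays. Its difference of 0.30 (SE 0.24) was 0.00217 without knockout replicate 2. The 6 stellate cell markers, a list that includes the pericyte gene Rgs5, summed on the linear scale to 615, 1337 and 641 in knockout and 707, 614 and 555 in control arrays, highest in the same array, with none at 0. All 6 had positive differences, 0 of them at an unadjusted p under 0.05, where 5.06% of all genes were higher. The macrophage and sinusoidal endothelial sums were also highest in knockout replicate 2. The part of any of these lists in the Abcc9 value was not tested. Abcc8 was dim, with a difference of -0.029.

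Array by array, ABC genes lay below the control range more often than all genes did in each of the 3 knockout arrays. Knockout replicate 3, which correlated better with the controls over all genes, lay below the range of the 3 controls for 23 members (47.9%), where it did so for 30.2% of all genes, and above for 11 (22.9%), where 30.8% of all genes did. Knockout replicate 1 lay below for 22 members (45.8%, against 32.2% of all genes) and above for 11 (22.9%, against 29.9%). Knockout replicate 2 lay below for 18 (37.5%, against 30.1%) and above for 17 (35.4%, against 28.2%). Among the 3 knockout arrays replicate 3 was the lowest for 24 of the 48 members, where it was for 33.2% of all genes, and replicate 2 the highest for 23, where it was for 33.9% of all genes. The knockout SD exceeded the control SD for 34 of the 48 members, where it did so for 14056 of all 22180 genes. Median SDs of the members were 0.20 in the knockout and 0.15 in the control arrays, close to those of all genes (0.193 and 0.146).

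Transcription factors known to control ABC genes in liver were read from a list of 14, of which 12 were measured. At an unadjusted p under 0.05, 3 were lower, 0 were higher and 9 did not reach that level, where 5.46% of all genes were lower and 5.06% higher. Nr1i2 (PXR, the xenobiotic receptor) lay at 6.39, 6.30 and 6.44 in knockout and 6.66, 6.75 and 6.99 in control arrays (difference -0.42, limma adjusted p = 0.348). Hnf4a, a master factor of hepatocyte identity, lay at 9.32, 9.24 and 9.52 in knockout and 9.74, 9.66 and 9.75 in control arrays (difference -0.36, limma adjusted p = 0.399). Ahr, the aryl hydrocarbon receptor, lay at 7.11, 6.70 and 7.17 in knockout and 7.24, 7.61 and 7.34 in control arrays (difference -0.40, limma adjusted p = 0.450). In all 3 genes, and in Ppara (-0.26), the knockout values lay below the controls without overlap, as they did for 9.14% of all genes. The sterol receptor gene Nr1h3 (LXR alpha) differed by -0.00254 and the bile acid receptor gene Nr1h4 (FXR) by -0.083. Among 7 measured scaffold and lipid partners of canalicular transporters, 0 reached an unadjusted p under 0.05 and differences ran from -0.20 to 0.15.

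**Figure D4:**
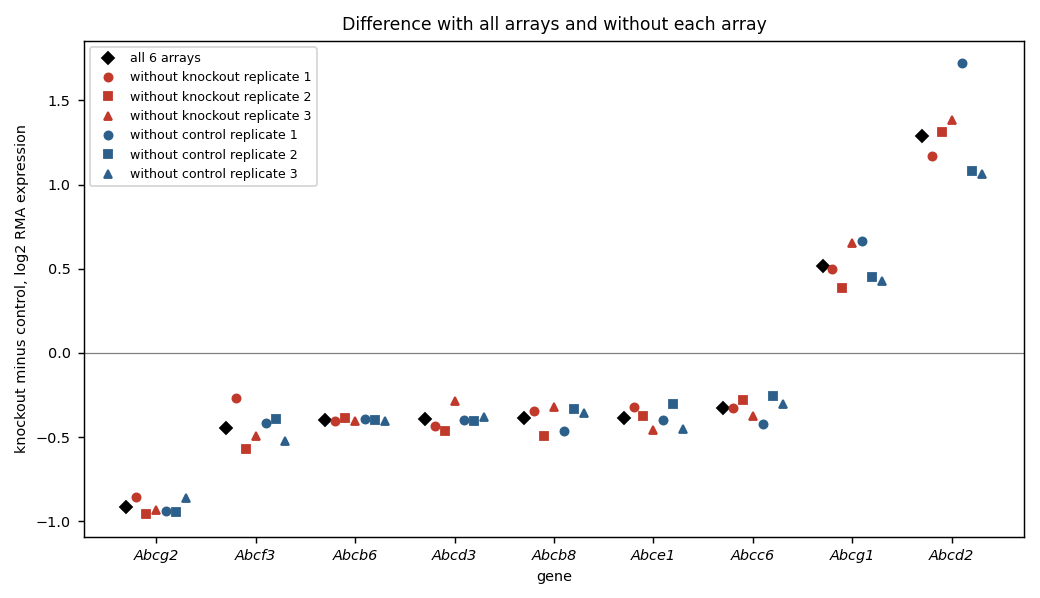
Difference between knockout and control (log2 RMA expression) for the 9 ABC genes at an unadjusted p under 0.05, with all 6 arrays (black diamonds) and without each array in turn. Abcg2 and Abcb6 moved least, from -0.96 to -0.85 and from -0.41 to -0.38, and Abcd2 most, from 1.06 to 1.72.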

How the data were processed

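Liver RNA (6 samples) was hybridised to Affymetrix arrays and summarised by RMA in Expression Console 1.4.1, per the submitters' processing notes. The deposited table holds the authors' log2 expression of 41345 probe sets. RMA hides a change shared by most transcripts. No genome build is given in the sources used here.

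Probe sets were named with the platform's annotation, and the 23521 with 1 symbol gave 22180 genes, using the probe set with the highest mean where there were several. All 48 members matched RefSeq (GRCm38.p6) by gene number and symbol. Differences are knockout minus control from lmFit and eBayes of limma 3.58.1 (R 4.3.3), 2-sided, adjusted by Benjamini-Hochberg over all genes. The test was tested on simulated data, with the same variance in both groups. Every planted shift was larger than the difference of any member but Abcd2, so smaller differences were not covered. An exact permutation test of 3 against 3 arrays cannot go below 0.1. The number of arrays limits the precision.

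Members and lists were chosen with earlier results of these data known. Named were members of the canalicular, sinusoidal, sterol, peroxisomal and mitochondrial groups, others at an unadjusted p under 0.05 or without overlap, and listed partner genes by the same level or by their statistic; Abca6, Abcc8 and Abcd4 and partner genes beyond that were named to complete their groups after their values were seen. Alternatives were mean probe sets, a filter on dim genes, 2 further normalizations, 2 variance priors, array weights, a replicate block and leaving out each array.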

Additional observations from a re-analysis of the deposited data

How the results depend on the processing

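The number of ABC genes at an adjusted p of 0.05, 0 with the settings of the report, was 1 with dim genes left out and 1 with the intensity trend, Abcg2 both times. The number lower at an unadjusted p under 0.05 ran from 3 to 9 and the number higher from 1 to 3 when single arrays were left out, and the median difference of all members from -0.14 to -0.014 (-0.13 with dim genes left out). Medians without single arrays ran from -0.27 to -0.12 in subfamily B (-0.29 with dim genes left out), from -0.41 to -0.33 in the mitochondrial genes (-0.34 after further quantile normalization), from -0.020 to 0.094 in the Abca6 neighbours and from -0.076 to 0.19 in the other Abca genes. Differences that changed sign ran from -0.022 to 0.16 for Abca1, -0.41 to 0.27 for Abcb1a (-0.014 after further quantile normalization), -0.34 to 0.00128 for Abcb1b, -0.19 to 0.27 for Abcc5, -0.14 to 0.13 for Abcg5 and -0.14 to 0.19 for Abcg8; the cause was not tested. The replicate numbers are not shown to pair the arrays, since deviations of same-numbered arrays correlated at 0.00641, 0.0525 and 0.0154 across genes. With the replicate block 7 members were lower, 2 higher and 0 passed an adjusted p of 0.05. Dim signal limits 12 members.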

Other observations

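Carriers that take up bile acids and drugs from blood into hepatocytes, the other side of the transport that ABC exporters complete, were read from a list of 7, of which 6 were measured. Slco1a1, an organic anion carrier that is higher in male than in female mouse liver, lay at 6.58, 4.82 and 8.85 in the knockout arrays and at 9.14, 9.46 and 9.47 in the control arrays (difference -2.61, SE 0.78, limma adjusted p = 0.326). Its knockout values lay below the controls, with replicate 3 nearest to them. Slc10a1, the sodium-dependent bile acid carrier, lay at 10.9, 10.8 and 10.8 in knockout and 10.5, 10.6 and 10.7 in control arrays (difference 0.22, limma adjusted p = 0.591), and its groups did not overlap. Slco1a4 had a difference of 0.40 with overlapping groups. At an unadjusted p under 0.05, 1 of the 6 carriers was lower, where 5.46% of all genes were, and 0 were higher.

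Related ABC proteins whose symbols do not begin with Abc were also read. Tap1, which carries peptides for antigen presentation, lay at 6.47, 7.13 and 5.94 in knockout and 5.97, 6.42 and 6.31 in control arrays, with replicate 2 highest and replicate 3 lowest of all 6 arrays. Its partner Tap2 had a difference of -0.096. Cftr, the chloride channel of bile duct cells, was dim, at 2.22, 1.45 and 2.55 in knockout and 1.56, 1.70 and 1.70 in control arrays.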
